A study of Homo sapiens with 8 samples.

Results

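Transcripts of 10 genes of the NF-kB system were followed in HCT116 cells, an established human colon cancer line that here carries wild-type p53 (p53+/+). The genes were taken by symbol from a deposited table of 58302 genes, and each symbol had a single row. They comprise the 5 subunit genes NFKB1, NFKB2, REL, RELA and RELB, the 3 genes NFKBIA, NFKBIB and NFKBIE for inhibitors of the IkB type, and the 2 feedback genes TNFAIP3 and BIRC3. Cultures were given 1 µM MANIO, a compound known here by its code name, or its solvent DMSO, and RNA was taken 24 hours later from 4 biological replicates of each group. The stated purpose was to look for a p53 response in the transcriptome. All cultures are of a single cell line, so the p-values below measure the spread between these cultures only.

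NF-kB is a family of dimeric transcription factors that share a Rel homology domain, through which they pair and bind DNA. In resting cells IkB proteins hold the dimers in the cytoplasm, and signals from tumour necrosis factor, interleukin-1 or Toll-like receptors lead the IkB kinase complex to mark IkB for degradation, which releases mainly dimers of RELA and the product of NFKB1. In the slower alternative pathway the kinase NIK, the product of MAP3K14, leads to the partial processing of the NFKB2 precursor, which binds RELB. Several of the genes studied here are known NF-kB targets themselves, and the system is known in colon epithelium for linking inflammation to cell survival.

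Promoter sequences are shown for 5 start sites because these genes include 3 that rose, NFKB2, TNFAIP3 and BIRC3, the gene that fell, NFKB1, and NFKBIA, the classical feedback inhibitor, which did not pass the test. Each runs from 250 bases before to 50 bases after a RefSeq transcription start on GRCh38.p14, 5′ to 3′ along the gene, with matches to the kB site consensus of NF-kB dimers, searched on both strands, in capitals. Where matches overlap, they form a single run of capitals. Each of the 5 windows shown holds a match, while the first start of NFKB2 and the second of NFKB1, not shown, hold none. The windows are chr10:102394328-102394627 on the plus strand (NFKB2, the second of its 3 start sites), chr6:137867009-137867308 on the plus strand (TNFAIP3), chr11:102317234-102317533 on the plus strand (BIRC3), chr4:102501109-102501408 on the plus strand (NFKB1, the first of its 2 start sites) and chr14:35404700-35404999 on the minus strand (NFKBIA).
NFKB2: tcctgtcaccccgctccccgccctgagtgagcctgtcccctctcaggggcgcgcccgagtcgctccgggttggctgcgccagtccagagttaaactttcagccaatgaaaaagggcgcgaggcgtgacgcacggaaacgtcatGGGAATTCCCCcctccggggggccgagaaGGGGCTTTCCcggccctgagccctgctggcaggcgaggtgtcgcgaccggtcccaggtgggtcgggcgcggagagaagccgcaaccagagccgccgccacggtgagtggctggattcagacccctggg
TNFAIP3: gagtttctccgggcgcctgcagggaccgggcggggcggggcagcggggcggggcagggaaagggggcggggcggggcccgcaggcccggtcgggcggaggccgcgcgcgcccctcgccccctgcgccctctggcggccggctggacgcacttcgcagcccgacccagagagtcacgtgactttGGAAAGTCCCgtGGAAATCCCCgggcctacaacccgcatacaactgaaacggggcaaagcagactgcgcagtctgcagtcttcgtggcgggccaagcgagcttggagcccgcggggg
BIRC3: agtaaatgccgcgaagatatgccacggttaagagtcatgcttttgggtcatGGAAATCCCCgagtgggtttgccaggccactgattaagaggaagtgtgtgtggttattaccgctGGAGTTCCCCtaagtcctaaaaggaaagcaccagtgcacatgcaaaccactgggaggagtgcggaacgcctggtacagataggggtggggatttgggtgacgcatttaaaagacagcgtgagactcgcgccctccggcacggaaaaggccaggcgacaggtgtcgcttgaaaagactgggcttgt
NFKB1: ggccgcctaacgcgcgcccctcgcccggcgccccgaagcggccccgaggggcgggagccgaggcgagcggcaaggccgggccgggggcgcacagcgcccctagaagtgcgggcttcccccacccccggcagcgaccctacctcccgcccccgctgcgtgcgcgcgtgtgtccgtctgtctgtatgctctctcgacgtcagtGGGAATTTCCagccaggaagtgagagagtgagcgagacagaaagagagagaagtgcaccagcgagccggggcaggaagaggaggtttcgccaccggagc
NFKBIA: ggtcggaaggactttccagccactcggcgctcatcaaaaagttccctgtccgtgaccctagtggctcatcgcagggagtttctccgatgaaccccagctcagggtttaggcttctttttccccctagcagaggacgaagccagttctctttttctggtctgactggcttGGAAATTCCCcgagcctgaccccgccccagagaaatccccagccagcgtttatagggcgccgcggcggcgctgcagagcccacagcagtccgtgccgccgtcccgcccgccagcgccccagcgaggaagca

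RefSeq's promoter table held 13 start sites for 8 of the 10 genes, and RELB and NFKBIE were not matched. A kB match was found in 8 of these 13 windows and in 7 of the 8 genes, against 5.91% of all 35114 windows of the same length and 7.09% of the 27303 genes with a window. The genes were picked as members of the NF-kB system, several of them known targets of it, so this count is a description. The NFKB2 window shown held a run of 2 overlapping matches, GGGAATTCCCC, and a separate match, GGGGCTTTCC, at -78 to -69 from the start site. The third NFKB2 start held 2 more matches and its first start none. TNFAIP3 held 2 matches, at -67 to -58 and at -55 to -46, and BIRC3 held 2, at -199 to -190 and at -135 to -126, all on the opposite strand, so that the capitals show their reverse complements. NFKB1 and NFKBIA held the same letters, GGGAATTTCC, on opposite strands, from -49 and from -81. NFKB1, NFKBIA, REL and NFKBIB each held a run of capitals at 1 start site, and RELA had no match at either start. Matches were thus present in genes that rose, in the gene that fell and in genes that did not pass the test. A match is a stretch of letters, not a shown binding site, and the deposited counts cover whole genes and do not separate start sites.

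Of the 10 genes, 4 rose and 1 fell with MANIO, and 5 did not pass the test. RELB and NFKB2, the subunit genes of the alternative pathway, rose 1.70-fold and 1.44-fold. TNFAIP3, which encodes a ubiquitin-editing brake on NF-kB signalling, rose 1.40-fold, and BIRC3, which encodes an inhibitor of apoptosis protein with ubiquitin ligase activity, rose 1.37-fold. NFKB1 fell to 0.873 of its DMSO level, and the 3 IkB genes had fold changes between 0.996 and 1.02. Across all 15712 genes tested, 54.6% were called, 27.8% higher and 26.8% lower, so 5 called genes among 10 is close to the background. A gene was called at an adjusted p under 0.05 in the quasi-likelihood F test of edgeR, adjusted by Benjamini-Hochberg over all genes tested. All 10 genes passed the filter on low counts, with 137 to 5171 counts per library. Levels are given as CPM, the usual scaling of a gene's counts by the library total, with edgeR's TMM factors applied to the totals.

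**Figure D1:**
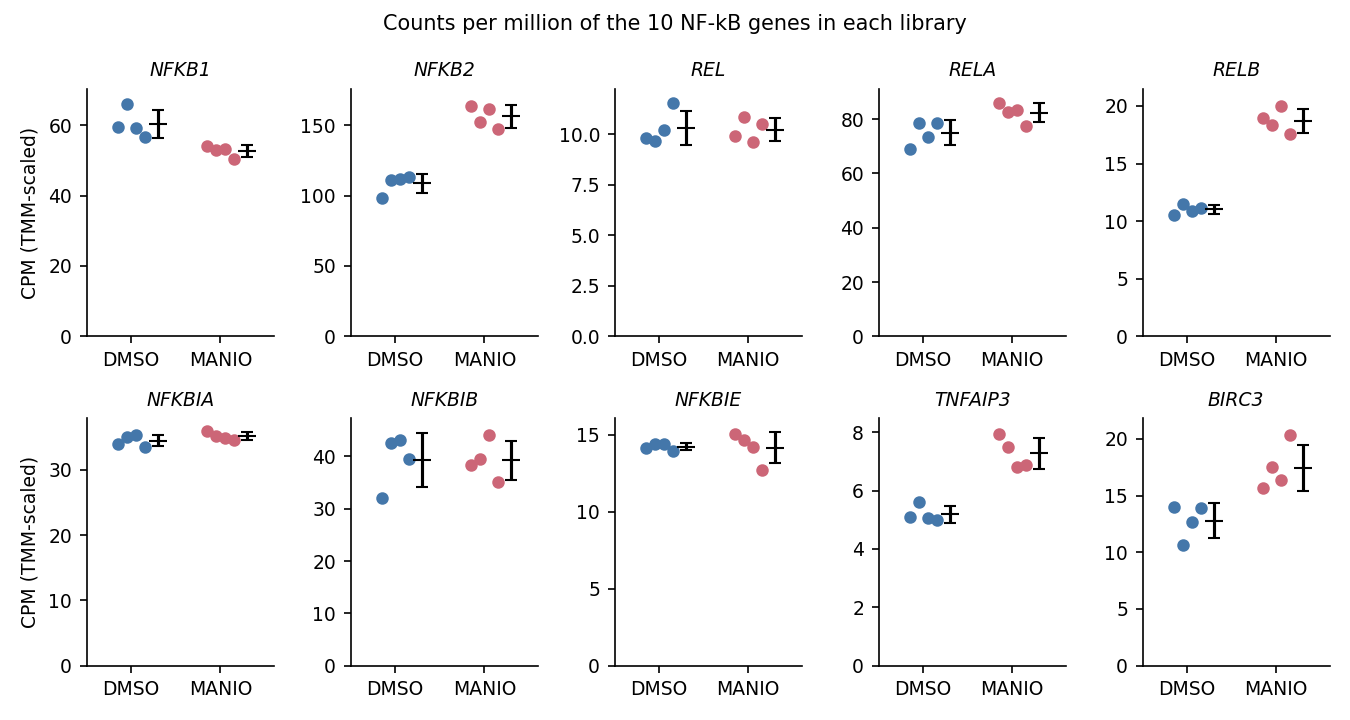
Each panel plots a gene's level in CPM (linear axis from 0) in the 4 DMSO libraries (blue) and the 4 MANIO libraries (red), with replicates 1 to 4 from left to right and the mean and SD as black bars. The MANIO libraries lie above all DMSO libraries for NFKB2, RELB, TNFAIP3 and BIRC3 and below them for NFKB1, and the groups overlap in the other 5 panels.

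Library totals ranged from 27945196 to 32509020 counts. DMSO replicate 1 stood apart, with 7.48% of its counts in mitochondrially encoded genes against 4.82% to 5.21% in the other DMSO libraries and 6.70% to 7.62% in MANIO. Of 6 epithelial markers 5 exceeded 1 CPM, and CDH17 had 9 counts over all libraries. Of 7 leukocyte markers only ITGAM exceeded 1 CPM in any library, and PTPRC, the gene of the pan-leukocyte antigen CD45, had 1 count in all 8 libraries together. The summed epithelial markers, mostly KRT8, KRT18 and KRT19, ranged from 3333 to 3606 CPM in DMSO and from 4118 to 4618 CPM in MANIO. Within this sum the mean of EPCAM was 293 CPM in DMSO and 280 CPM in MANIO, and that of CDH1 102 and 127 CPM. The summed leukocyte markers ranged from 0.509 to 0.978 CPM in DMSO and from 1.92 to 2.35 CPM in MANIO, and the summed fibroblast markers, nearly all COL1A1, from 21.5 to 26.4 and from 39.4 to 47.7 CPM. The summed markers of endothelium, mainly VWF, went the other way, from 0.700 to 1.10 CPM in DMSO and from 0.222 to 0.475 CPM in MANIO. The part of these marker levels in the results was not tested.

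Among the subunit genes, RELB had the largest change. It encodes the partner of the processed NFKB2 product, and lies on chromosome 19 at 45001430 to 45038198 (GRCh38, ENSG00000104856). Its level was 10.5, 11.5, 10.9 and 11.2 CPM in DMSO replicates 1 to 4 and 18.9, 18.4, 19.97 and 17.5 CPM in MANIO replicates 1 to 4. Every MANIO library was above every DMSO library, and the gap between the groups was wider than the range within either. The increase was 0.76 on the log2 scale (SE 0.0692, edgeR adjusted p = 3.3e-07). RELB was the single member called with a rise of at least 1.5-fold, as were 11.1% of all genes tested, and its change was larger in size than that of 88.3% of them.

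NFKB2 encodes the precursor protein that is processed in the alternative pathway and lies on chromosome 10 at 102394110 to 102402529 (ENSG00000077150). It held 98.1, 111, 112 and 113 CPM in the DMSO libraries and 164, 152, 161 and 147 CPM in the MANIO libraries. DMSO replicate 1 was low, the other DMSO libraries were close together, and the groups did not overlap. The log2 fold change was 0.52 (SE 0.0589, edgeR adjusted p = 3.0e-06), and it was 0.48 without DMSO replicate 1 (adjusted p = 2.1e-06). The 95% intervals of the changes of RELB, 0.62 to 0.91, and NFKB2, 0.40 to 0.65 on the log2 scale, overlapped, and the difference between them was not tested.

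NFKB1, whose precursor gives the usual partner of RELA, moved the other way by a small amount. It lies on chromosome 4 at 102501329 to 102617302 (ENSG00000109320) and, at 116.0 kb, has the longest span of the 10 genes. Its level was 59.4, 66.1, 59.2 and 56.6 CPM in DMSO and 54.1, 52.98, 53.3 and 50.2 CPM in MANIO. The lowest DMSO library was above the highest MANIO library, though the gap was smaller than the range within DMSO, which DMSO replicate 2 widened. This is a log2 fold change of -0.20 (SE 0.0590, edgeR adjusted p = 0.0111), with a 95% interval of -0.32 to -0.07. When the change was tested against a limit of 1.2-fold with edgeR's glmTreat, NFKB1 was no longer called (adjusted p = 0.982), while RELB (6.0e-06), NFKB2 (4.0e-04), TNFAIP3 (0.0137) and BIRC3 (0.0412) were, against 14.7% of all genes tested that glmTreat called higher. In bulk RNA, a lower level in every cell and fewer cells expressing the gene cannot be told apart.

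RELA, the main activating subunit, and REL, a related subunit best known from lymphoid cells, did not pass the test. RELA had 69.1, 78.7, 73.5 and 78.5 CPM in DMSO and 85.9, 82.6, 83.2 and 77.6 CPM in MANIO. Only MANIO replicate 4 fell within the DMSO range, and DMSO replicate 1 was again the lowest. The log2 fold change was 0.14 (SE 0.0575, edgeR adjusted p = 0.0578), with an interval of 0.01 to 0.26. It passed the threshold in 3 of 16 alternative fits, without DMSO replicate 2 (adjusted p = 0.0469), without MANIO replicate 4 (0.0258) and with a stricter filter on low counts (0.0455), and it was at 0.10 without DMSO replicate 1 (adjusted p = 0.158). REL had 9.68 to 11.5 CPM in DMSO and 9.59 to 10.8 CPM in MANIO, with a log2 fold change of -0.01 and an interval of -0.19 to 0.16. A non-coding gene on the same strand shares 43.3% of the exonic bases of REL, so its count is uncertain.

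**Figure D2:**
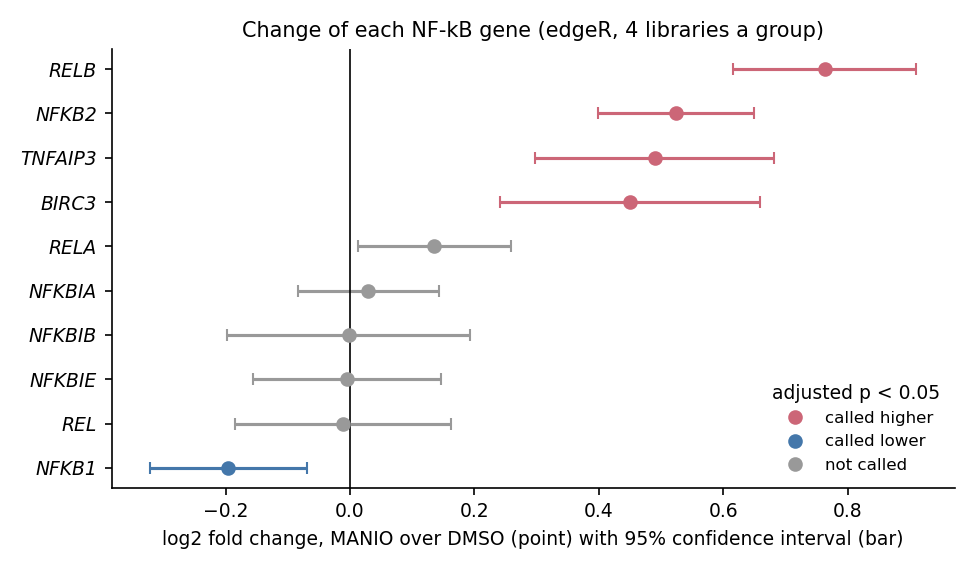
Points give the log2 fold change of MANIO over DMSO from edgeR for each of the 10 genes and bars its 95% confidence interval, coloured by the call at an adjusted p under 0.05. RELB (0.76), NFKB2 (0.52), TNFAIP3 (0.49) and BIRC3 (0.45) lie to the right of 0, NFKB1 (-0.20) to the left, and the IkB genes at the centre.

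The 3 IkB genes had levels that overlapped between the groups. NFKBIA encodes IkB-alpha, which NF-kB induces quickly and which ends the response, and lies on chromosome 14 at 35401511 to 35404749 (ENSG00000100906). Its level was 34.0, 35.01, 35.3 and 33.5 CPM in DMSO and 36.0, 35.2, 34.9 and 34.5 CPM in MANIO. All 8 values lie close together, and the SD within a group was 2.47% of the mean in DMSO and 1.71% in MANIO. Its log2 fold change was 0.03 (SE 0.0533, edgeR adjusted p = 0.669), and the 95% interval spans fold changes from 0.943 to 1.10.

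NFKBIB, which encodes IkB-beta, had 32.0, 42.5, 43.2 and 39.4 CPM in DMSO and 38.3, 39.6, 44.0 and 35.2 CPM in MANIO. It was the most variable of the 3, with an SD of 13.0% of the mean in DMSO, where replicate 1 was the lowest. Its log2 fold change was -0.0024 (interval -0.20 to 0.19), and -0.09 without DMSO replicate 1 (edgeR adjusted p = 0.315). NFKBIE, which encodes IkB-epsilon, had 13.9 to 14.4 CPM in DMSO and 12.7 to 15.1 CPM in MANIO, and a log2 fold change of -0.01 (interval -0.16 to 0.15). For these 2 genes the intervals leave room for fold changes from 0.872 to 1.14 (NFKBIB) and from 0.897 to 1.11 (NFKBIE).

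The feedback genes TNFAIP3 and BIRC3 rose. TNFAIP3 lies on chromosome 6 at 137867188 to 137883312 (ENSG00000118503) and 1.88% of its exonic bases overlap another gene. It held 5.10, 5.59, 5.06 and 4.97 CPM in DMSO and 7.92, 7.499, 6.80 and 6.86 CPM in MANIO. The groups did not overlap, and the lowest MANIO library was above the highest DMSO library by more than the range within DMSO. It rose by 0.49 on the log2 scale (SE 0.0901, edgeR adjusted p = 3.1e-04). The counts behind it were the lowest of the 10 genes, 137 to 250 per library.

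BIRC3 lies on chromosome 11 at 102317450 to 102339403 (ENSG00000023445). Its product is known to act with BIRC2, TRAF2 and TRAF3 in the complex that removes NIK in unstimulated cells, and in signalling below tumour necrosis factor receptors. It had 13.9, 10.7, 12.6 and 13.9 CPM in DMSO and 15.7, 17.5, 16.4 and 20.3 CPM in MANIO. The groups did not overlap, but both were wide, with SDs of 12.1% and 11.6% of the mean, DMSO replicate 2 being low and MANIO replicate 4 high. BIRC3 rose by 0.45 on the log2 scale (SE 0.0980, edgeR adjusted p = 0.00122), and it was 0.37 both without DMSO replicate 2 (adjusted p = 0.00370) and without MANIO replicate 4 (0.00273). Its paralogue BIRC2 stood at 73.4 ± 5.50 CPM in DMSO and 78.9 ± 6.52 CPM in MANIO (SD, n = 4 each), with overlapping groups (log2 fold change 0.10, edgeR adjusted p = 0.212). In all, the groups did not overlap for 5 of the 10 genes, against 48.3% of all genes tested. MANIO was above DMSO in 4 of these, against 24.7% of all genes, and below it in 1, against 23.7%.

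Levels were compared between genes as CPM per kb of merged exon. In DMSO, NFKB2 was the highest of the 10 at 24.2 ± 1.56 CPM per kb (SD, n = 4), and REL the lowest at 0.782 ± 0.0653. Between them stood NFKBIB (16.9 ± 2.20), NFKBIA (14.5 ± 0.359) and RELA (13.7 ± 0.837), whose neighbouring ranges overlapped. They were followed by NFKB1 (9.64 ± 0.650), NFKBIE (5.51 ± 0.0901), RELB (3.63 ± 0.134), BIRC3 (1.70 ± 0.206) and TNFAIP3 (1.03 ± 0.0551), none of which overlapped its neighbours in this order. In MANIO, NFKB2 was again highest (34.8 ± 1.75) and REL lowest (0.776 ± 0.0431). RELB (6.16 ± 0.337) stood above NFKBIE (5.49 ± 0.397) there, with overlapping ranges, where in DMSO every RELB value had been below every NFKBIE value. With the length of the longest transcript in place of merged exons, 8 of the 10 genes had the same rank in DMSO. RELA and NFKBIB then exchanged places. The count of REL is uncertain, as 43.3% of its exonic bases are shared with a non-coding gene. Its level per kb and its lowest place are therefore uncertain too.

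**Figure D3:**
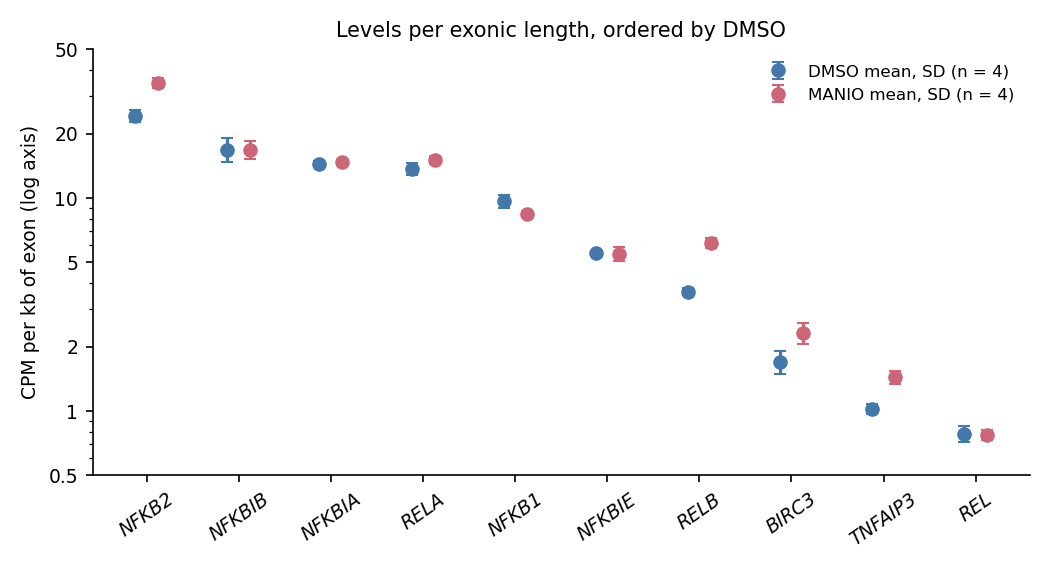
CPM per kb of merged exon on a log axis for the 10 genes, ordered by their level in DMSO, with points for the group means and bars for the SD (n = 4). NFKB2 is the highest in both groups (24.2 and 34.8) and REL the lowest, and RELB moves from 3.63 to 6.16. The place of REL is uncertain, as it shares exonic bases with another gene.

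The make-up of the subunit transcripts differed between the groups. On the scale of CPM per kb, NFKB2 made up 46.6 ± 1.21% of the summed 5 subunit genes in DMSO and 53.4 ± 0.505% in MANIO (SD, n = 4 each), and RELB 6.99 ± 0.139% and 9.45 ± 0.262%. The shares of NFKB1 went from 18.6 ± 1.25% to 12.9 ± 0.221%, of RELA from 26.4 ± 0.524% to 23.1 ± 0.310% and of REL from 1.51 ± 0.123% to 1.19 ± 0.110%. None of these shares had overlapping ranges between the groups. As shares of a common sum they are tied to each other, so a lower share of RELA is not a lower level, and no test was run on them. REL, whose count is uncertain, enters that sum as well.

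Ratios within a library do not depend on the scaling between libraries. The ratio of NFKB2 to NFKB1 was 2.31, 2.35, 2.64 and 2.79 in the DMSO libraries and 4.22, 4.01, 4.23 and 4.09 in the MANIO libraries. The ratio of RELB to RELA was 0.256 to 0.274 in DMSO and 0.397 to 0.432 in MANIO. Both were higher in MANIO, by factors of 1.64 and 1.54 between the group means, and in neither did the groups overlap. The ratio of NFKBIA to RELA was 1.06 ± 0.0701 in DMSO and 0.984 ± 0.0285 in MANIO, with overlapping ranges. That of NFKBIB to RELA overlapped too, at 1.09 to 1.383 in DMSO and 1.047 to 1.244 in MANIO. The ratio of NFKBIE to RELA was 0.3755 to 0.433 in DMSO and 0.3469 to 0.3752 in MANIO, narrowly without overlap. These ratios are descriptions and were not tested.

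**Figure D4:**
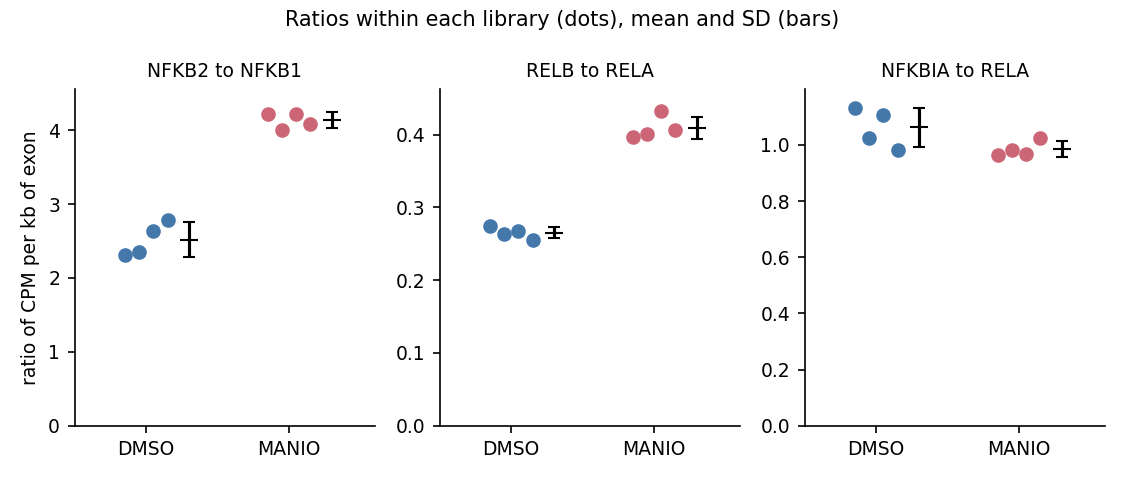
Ratios of CPM per kb of exon within each library (dots, replicates 1 to 4 from left to right) with mean and SD (black bars), on linear axes from 0. NFKB2 to NFKB1 goes from 2.52 to 4.14 and RELB to RELA from 0.265 to 0.409, while NFKBIA to RELA overlaps between the groups.

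The 10 genes fell into a few patterns over the 8 libraries. Likeness was measured as the root mean square difference of log2 CPM after each gene's own mean was subtracted, so that a smaller number means a closer profile. NFKBIA and NFKBIE were the closest pair (0.0566), followed by NFKBIA and RELA (0.0833) and by NFKB2 and TNFAIP3 (0.0958). RELB was closest to NFKB2 among the members (0.126), and the farthest pair was RELB and NFKB1 (0.480). RELB had the smallest p of the 10, and among 12037 other genes with a symbol and a mean log2 CPM of at least 1 the profiles most like it were those of SHC1 (0.0372), an adaptor in receptor tyrosine kinase signalling, the calcium channel subunit gene CACNB1 (0.0451) and CPNE7 (0.0457). SHC1 went from 192 ± 6.77 to 323 ± 13.2 CPM, up by 0.75 on the log2 scale (edgeR adjusted p = 1.9e-08), and shares 15.2% of its exonic bases with another gene. With 2 groups, such likeness mostly follows the size of the difference between them.

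The wider pathway was described with 6 lists of 154 genes in all, of which 151 had a row in the table and 120 were tested. TICAM1, NFKBID and N4BP1 were not matched by symbol and were not analysed here. Over the 120 genes, 47 rose (39.2%) and 19 fell (15.8%), with a median log2 fold change of 0.14, beside 27.8% and 26.8% and a median of 0.0043 over all genes tested. The lists hold genes of differing roles, and each is given below by its count and median.

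Of 13 ligand genes, 5 were tested. Of these, 1 rose (20%, against 27.8% of all genes) and 0 fell (0%, against 26.8%), and the median was 0.36. IL1A, the gene of interleukin-1 alpha, was the single call, from 0.392 ± 0.128 to 0.684 ± 0.127 CPM (log2 fold change 0.80, edgeR adjusted p = 0.0190). That call was lost with DESeq2 (adjusted p = 0.0852), against the limit of 1.2-fold (glmTreat adjusted p = 0.0628) and without DMSO replicate 1 (0.0522), DMSO replicate 3 (0.0680) or MANIO replicate 3 (0.0592), and IL1A was not tested under the stricter filter on low counts. The gene of tumour necrosis factor itself, TNF, had 1 count in the DMSO libraries together and 3 in MANIO, and IL1B had 0 counts in either group.

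Of 18 receptor genes tested, 2 rose (11.1%, against 27.8% of all genes) and 7 fell (38.9%, against 26.8%), and the median was -0.30. TLR3, a sensor of double-stranded RNA, had 4.46, 4.44, 4.17 and 4.01 CPM in DMSO and 17.7, 20.1, 17.7 and 20.5 CPM in MANIO, a 4.44-fold rise (log2 fold change 2.15, edgeR adjusted p = 5.7e-11). Every MANIO library exceeded every DMSO library several-fold, and NOD2, an intracellular sensor of bacterial cell walls, was the other receptor gene that rose (0.53). IL1R1, the signalling receptor of interleukin-1, went from 13.7 ± 0.524 to 9.34 ± 0.948 CPM (log2 fold change -0.55, adjusted p = 4.3e-05), and TNFRSF19 from 0.793 ± 0.0469 to 0.199 ± 0.0468 CPM (-1.97, adjusted p = 1.2e-05). TNFRSF19 had only 22 to 24 counts per DMSO library and 5 to 8 per MANIO library. It was not tested under the stricter filter on low counts. TNFRSF1A, the main receptor of tumour necrosis factor, was among those that fell, by 0.35 on the log2 scale.

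Of 26 adaptor and ubiquitin ligase genes, 10 rose (38.5%, against 27.8% of all genes) and 4 fell (15.4%, against 26.8%). The median was 0.12. IRAK2, a kinase-like adaptor below interleukin-1 and Toll-like receptors, had 9.71, 10.2, 9.45 and 9.16 CPM in DMSO and 23.2, 20.9, 20.6 and 19.6 CPM in MANIO (log2 fold change 1.13, edgeR adjusted p = 1.2e-08). Its groups were far apart. BCL10, a scaffold that links antigen and other receptors to the IkB kinases, rose by 0.44 on the log2 scale, and PELI2, a ubiquitin ligase gene of the Pellino family, went from 4.60 ± 0.830 to 2.05 ± 0.370 CPM (-1.16). Of the genes named above as partners of BIRC3, TRAF3 rose (0.17, adjusted p = 0.0226) and TRAF2 fell (-0.28, adjusted p = 0.0249), both with overlapping groups.

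Of 15 kinase genes, 4 rose (26.7%, against 27.8% of all genes) and 3 fell (20%, against 26.8%), which is near the background. The median was 0.06. MAP3K14, the gene of NIK, had 23.7, 25.4, 21.2 and 19.5 CPM in DMSO and 28.8, 29.1, 28.1 and 27.2 CPM in MANIO, up by 0.34 on the log2 scale (edgeR adjusted p = 0.00165), and 12.3% of its exonic bases are shared with another gene. Its groups did not overlap, but against the limit of 1.2-fold it was not called (glmTreat adjusted p = 0.182). TAB3, a subunit of the TAK1 kinase complex, rose by 0.58 on the log2 scale (adjusted p = 3.0e-06), and CSNK2A1, a casein kinase gene, fell by 0.24 and was also not called against that limit (adjusted p = 0.758). Among the IkB kinase genes, IKBKB rose (0.21, adjusted p = 0.00582), CHUK had -0.04 and IKBKG -0.15, and those 2 did not pass.

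Of 23 genes listed as other inhibitors and deubiquitinases, 10 rose (43.5%, against 27.8% of all genes) and 4 fell (17.4%, against 26.8%). The median was 0.18. The list also holds BTRC, FBXW11, SKP1 and CUL1, genes of a ubiquitin ligase that are neither inhibitors nor deubiquitinases. ZC3H12A, the gene of an RNase that degrades inflammatory mRNAs, went from 7.68 ± 0.726 to 11.1 ± 0.765 CPM (log2 fold change 0.52, edgeR adjusted p = 1.4e-04). CYLD, a deubiquitinase that restrains NF-kB, rose by 0.35, and TNIP1, which encodes a partner of the TNFAIP3 product, by 0.27. COMMD1, whose exonic bases are shared with other genes to 38.5%, fell by 0.70 on the log2 scale, and TANK, an adaptor of TBK1, by 0.48. The ubiquitin ligase genes BTRC (-0.26) and CUL1 (-0.22) fell as well.

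Of 33 known NF-kB target genes tested, 20 rose (60.6%, against 27.8% of all genes) and 1 fell (3.03%, against 26.8%). The median was 0.30. The target genes of smallest p were FAS (1.83), DRAM1 (1.13) and CFLAR (1.08). FAS and DRAM1 are established p53 targets too. Without these 2, left out after their values were seen and with no search for other p53 targets in the list, the counts were 18 higher and 1 lower among 31 genes, with a median of 0.27. The gene that fell was IER3 (-0.31), named after its value was seen. In this list 13 of 46 genes had too few counts to be tested, among them the interleukin-6 gene IL6, with 2 counts in DMSO and 5 in MANIO.

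**Figure D5:**
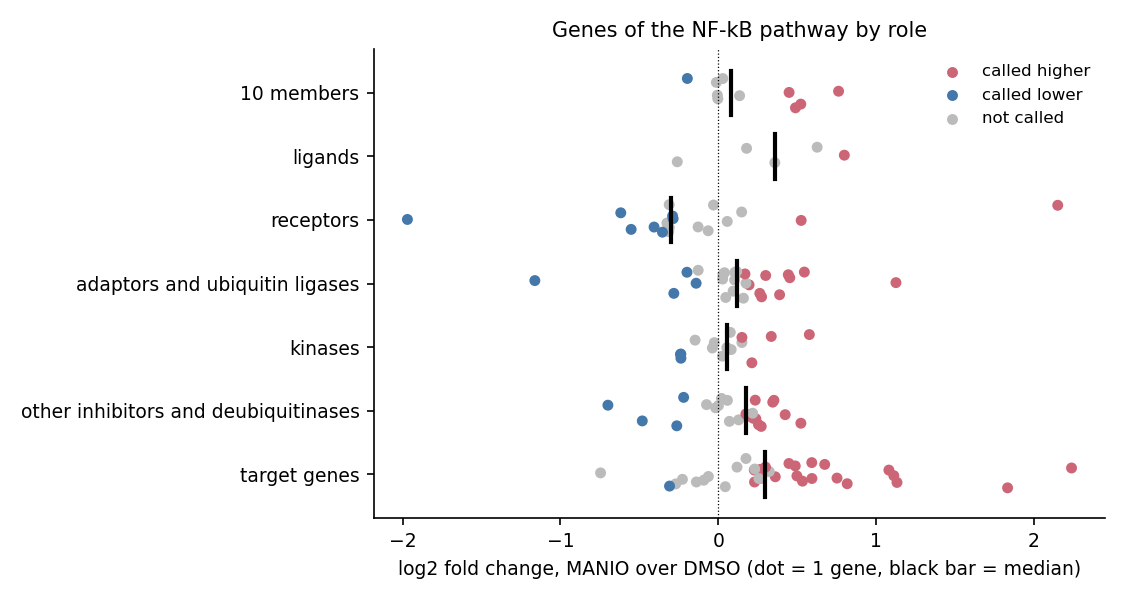
Each dot is a tested gene, placed by its log2 fold change of MANIO over DMSO and coloured by its call at an adjusted p under 0.05, in rows for the 10 genes and the 6 lists, with the median as a black bar; vertical scatter within a row carries no meaning. The medians are -0.30 for receptors, 0.30 for target genes and 0.36 for the 5 ligand genes tested. TLR3 (2.15) and TNFRSF19 (-1.97) lie at the ends of the receptor row.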

How the data were processed

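The data are a table of raw read counts per Ensembl gene deposited by the authors, with 1 column for each of the 8 libraries. Per the submitters' processing notes the tools named were STAR 2.5.3a, FastQC 1.3, DESeq2 and HTSeq, with build GRCh38, and per the labels' protocols libraries were made with Illumina's TruSeq RNA kit v2, which does not mark strand. Not given in the sources used here are the release of the gene annotation, the treatment of strand and that of multi-mapping reads.

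Counts were analysed in R 4.3.3 with edgeR 4.0.16: filterByExpr left 15712 of 58302 genes, libraries were scaled by TMM, and a quasi-likelihood F test with robust dispersion compared the groups, with Benjamini-Hochberg adjustment over all genes tested. SEs come from the F statistic, and CPM are TMM-scaled. The procedure was tested on simulated data. Gene positions, exon lengths and overlaps come from GENCODE 29 (GRCh38). The members and lists were chosen with earlier results of these data known. Named genes are the 10 members, up to 3 called genes of smallest p per list and 3 genes with the profile most like that of the member of smallest p, and others named were chosen after their values were seen. Alternatives were a replicate block, DESeq2 1.42.0, other scalings and filters, no robust dispersion, a 1.2-fold limit and each library left out. No library was a copy of another: within groups, chi-square over its degrees of freedom was 3.38 to 22.2.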

Additional observations from a re-analysis of the deposited data

Results flagged for a closer look

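NFKB2 in DMSO replicate 1 stood at 98.1 CPM, while the other 3 DMSO libraries held 111 to 113 CPM. The gap to the nearest of them was 0.872 of the group's whole range, above Dixon's critical value of 0.829 for 4 samples. It was the single such value among 58 groups of 4 libraries, covering 29 named genes, and chance alone flags about 1 group in 20. This library also had the highest mitochondrial share of its group, 7.48%. Without it the log2 fold change of NFKB2 was 0.48 in place of 0.52.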

How the results depend on the processing

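Over 16 alternative fits, the 4 members that rose and the member that fell kept their direction, and their calls were kept in all but the fit against a 1.2-fold limit, where the fall of NFKB1 was lost. That limit left 4 members higher and 0 lower, 21 genes of the wider lists higher and 5 lower, and 2302 genes higher and 1830 lower over all genes tested, against 47 and 19 and 4366 and 4208 without it, a stricter question by construction. Leaving out 1 library at a time gave 4 to 5 members higher and 1 lower, 40 to 51 and 17 to 20 genes of the lists, and 3962 to 4389 and 3829 to 4233 genes over all. The fifth member was RELA. Over the 16 fits the log2 fold change ranged from 0.73 to 0.79 for RELB, 0.48 to 0.55 for NFKB2, 0.45 to 0.53 for TNFAIP3, 0.37 to 0.50 for BIRC3 and -0.23 to -0.15 for NFKB1. Of 462 values of the 29 named genes under the alternatives, 451 kept direction and call or stayed without a call, 8 lost the call, 3 gained it and 0 reversed. With the replicate block, 4 members rose, 1 fell, and 4491 and 4354 genes were called over all. Whether the shared replicate numbers pair the samples cannot be settled from these values. The correlation of same-numbered deviations was 0.04 to 0.16, over 0.1 in 2 of 4 pairs. Not every library correlated best with its own number. Depth limits TNFAIP3 most, at 137 to 250 counts.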

Other observations

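Several NF-kB target genes with roles outside the feedback loop are given here as values; they were chosen after their values were seen. ICAM1, a leukocyte adhesion molecule, had the largest fold change of the target list, from 0.269 ± 0.0431 to 1.28 ± 0.350 CPM (SD, n = 4 each, log2 fold change 2.24, edgeR adjusted p = 6.9e-06), and shares 23.6% of its exonic bases with another gene. Its DMSO level was well below 1 CPM, so this change rests on few counts. ICAM1 was not among the genes followed in the alternative fits. CSF1, the gene of macrophage colony-stimulating factor, went from 5.58 ± 0.311 to 8.92 ± 0.630 CPM (0.68, adjusted p = 1.2e-05), and LCN2, an iron-binding secreted protein gene, from 1.53 ± 0.114 to 3.31 ± 0.368 CPM (1.11, adjusted p = 5.8e-06). TNFAIP2 rose by 0.53 and SDC4, a cell-surface proteoglycan gene, by 0.59 on the log2 scale.

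The chemokine genes of the same list that had enough counts to be tested did not pass the test. CXCL1 stood at 0.886 ± 0.102 CPM in DMSO and 0.759 ± 0.135 CPM in MANIO (edgeR adjusted p = 0.358), CXCL2 at 0.586 ± 0.257 and 0.350 ± 0.0455 CPM (adjusted p = 0.0593), CXCL3 at 0.646 ± 0.0903 and 0.534 ± 0.110 CPM (adjusted p = 0.348) and CXCL8 at 2.21 ± 0.455 and 2.503 ± 0.430 CPM (adjusted p = 0.396). CCL2 and CXCL5 had 0 counts in all 8 libraries, and CCL20 had 7 counts in DMSO and 6 in MANIO. These genes, and also CXCL10 and CCL5, had too few counts to be tested. SOD2, a mitochondrial superoxide dismutase gene and a classical NF-kB target, was at 115 ± 2.54 and 119 ± 6.06 CPM (log2 fold change 0.04, adjusted p = 0.488).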
